A study of Pseudotsuga menziesii with 26 samples.

Results

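Needles exposed to the whole exhaust of a diesel fuel with added CeO2 nanoparticles (cerium dioxide) were compared with needles exposed to the same exhaust after HEPA filtration, in seedlings of Douglas-fir (Pseudotsuga menziesii). The comparison used the 8 libraries of both exhaust groups that held a column total of at least 10000000 counts, out of 26 libraries in the series. These were DECe replicates 2, 3, 4 and 13, from seedlings in whole cerium-fuel exhaust, and DECe Gas Phase replicates 2, 3, 7 and 10, from seedlings in that exhaust passed through a HEPA filter. The column total alone chose them. The member libraries nearest the threshold were DECe replicate 13 at 12404373 counts and DECe Gas Phase replicate 10 at 13659729. The nearest libraries left out were DECe Gas Phase replicate 5 at 6840719 and DECe replicate 10 at 6675677. In all, 3 DECe and 2 DECe Gas Phase libraries fell below the threshold and are called shallow here.

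Each library was poly(A) RNA of the previous year's needles and is counted as 1 seedling. The seedlings shared 1 parent and their atmosphere was drawn at random. Exposure lasted 2 weeks in December, with needle growth dormant, at 6 h on each of 5 weekly days and filtered air between exposures. Light was given for 16 h a day. The Air Control group (n = 6, all above the same threshold) received charcoal, Purafil and HEPA filtered air throughout and is given here only as a reference level. Air Control replicate 14 stood apart, with 81.8% of its counts in the dominant transcripts defined below against 33.6% to 53.1% in the other 5, so values set against air are also given without it. Each atmosphere had 1 chamber of 984 L, so the particle fraction and the chamber cannot be told apart, and each p-value reflects variation among seedlings of a chamber only.

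Diesel exhaust is a mixture of gases, among them nitrogen oxides and carbon monoxide, and of fine soot particles. Cerium dioxide in the fuel acts as a combustion catalyst, and leaves the engine with the particles. Gases enter a needle mainly through its stomata, whereas particles mostly settle on the waxy surface. A HEPA filter takes away the particles and lets the gases pass, so setting whole against filtered exhaust asks which needle transcripts follow the particles. The deposited tables do not pair transcript identifiers with gene names, so each transcript carries its identifier and a length worked out from counts and RPKM, with no function.

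Total counts were 12404373 to 60457187 in the DECe libraries and 13659729 to 36040778 in the DECe Gas Phase libraries. The geometric mean total in DECe was 1.22 times that in DECe Gas Phase (n = 4 and 4), a description with no test, since the totals chose the libraries. At least 1 count was found for 36286 to 62480 transcripts in DECe and 42048 to 56304 in DECe Gas Phase (p = 0.943 in a two-sided exact permutation test, and 0.943 after adjustment over 2 library measures). The direction of the first changed without DECe replicate 3 (log2 difference -0.122), and that of the second without DECe replicate 2, DECe replicate 13 or DECe Gas Phase replicate 7 (1629, 2062 and 1498 more in DECe).

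A few very abundant transcripts took a large part of every library. Here 23 transcripts are called dominant, each with over 1% of a library in any of the 26. They held 43.3% ± 3.41 of the counts in DECe and 48.8% ± 5.52 in DECe Gas Phase (SD, n = 4 and 4). Single libraries ran from 38.2% in DECe replicate 13 to 45.4% in DECe replicates 2 and 4, and from 43.4% to 56.4% in DECe Gas Phase, so the groups overlapped. The difference did not pass (p = 0.143 in a two-sided exact permutation test, 0.286 after adjustment), and without DECe Gas Phase replicate 7 its unadjusted exact p was 0.0286, the smallest that 3 against 4 libraries can give. In bulk needles, fewer cells of a type and less RNA per cell cannot be told apart.

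The 5 most abundant transcripts over the 8 libraries together took 25.0% to 42.1% of the counts. The first, psme_t002753 (4295 nt), held 12.5%, 21.1%, 13.5% and 10.7% of the counts in DECe replicates 2, 3, 4 and 13. It held 9.39%, 16.3%, 11.4% and 16.5% in DECe Gas Phase replicates 2, 3, 7 and 10. The highest and the lowest share were thus those of DECe replicate 3 and DECe Gas Phase replicate 2, and the groups overlapped. The second, psme_t001906 (4727 nt), held 4.26%, 5.69%, 9.09% and 7.05% in the DECe libraries and 9.82%, 10.2%, 7.97% and 10.3% in the DECe Gas Phase libraries, in the same order. All DECe shares lay below 3 of the 4 DECe Gas Phase shares, and no test was made of the shares themselves. The test used counts after TMM scaling, where the log2 fold change of psme_t001906 was -0.88. That difference had an unadjusted p of 0.0359 and did not pass over all transcripts (adjusted p = 0.9999, both from edgeR's quasi-likelihood test). In psme_t046227 (1024 nt), a single seedling set the group mean, with 13.6% in DECe Gas Phase replicate 2 and 2.69% to 5.14% in the other DECe Gas Phase libraries, against 2.39% to 5.55% in DECe. Per length, psme_t046227 reached the highest level of the 5, at 23300 to 133000 RPKM (counts scaled to transcript length and library total). The long psme_t000146 (8738 nt) had the lowest, at 2290 to 8800 RPKM. The fifth, psme_t077439 (631 nt), was at 16600 to 39100 RPKM, and the groups overlapped in all 5.

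**Figure D1:**
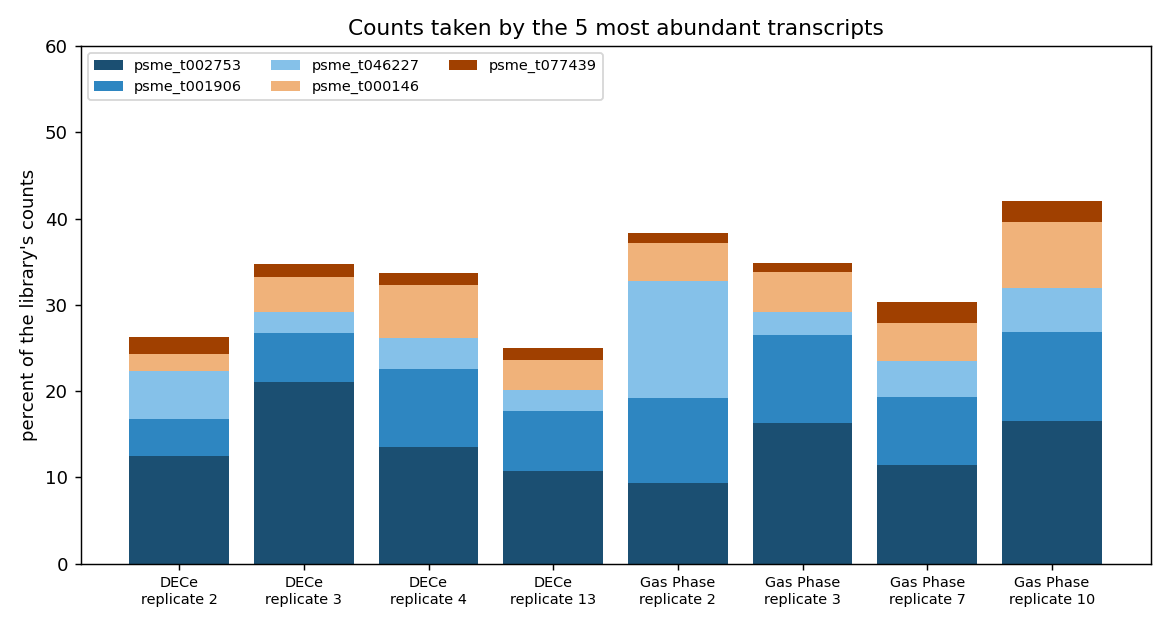
Bars give, for each of the 8 libraries, the percent of its counts taken by the 5 most abundant transcripts, stacked by transcript. The stacks run from 25.0% in DECe replicate 13 to 42.1% in DECe Gas Phase replicate 10, and psme_t046227 stands out in DECe Gas Phase replicate 2 at 13.6%.

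No transcript passed the test between whole and filtered exhaust. Of 27271 transcripts tested, 0 had an adjusted p under 0.05 (0% called, edgeR's quasi-likelihood test with Benjamini-Hochberg adjustment), and the lowest adjusted p was 0.278. At an unadjusted p under 0.05 there were 838 transcripts (3.07% of those tested), of which 278 (1.02%) were higher and 560 (2.05%) lower in DECe. With limma-voom 0 passed the adjusted threshold (0%) and 1046 (3.84%) the unadjusted one. DESeq2 called 11 (0.0403%), 2 higher and 9 lower in DECe, and 1084 (3.97%) at an unadjusted p under 0.05. It gave no adjusted p for 8078 of the 27271, which therefore could not be called. The edgeR count was 2 of 27986 tested without DECe Gas Phase replicate 7 and 1 of 28245 without DECe Gas Phase replicate 2.

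Estimated differences were small for most transcripts. The median log2 fold change was 0.00, its median size was 0.31, and 95% of transcripts lay within 1.24 log2 units of no difference. An estimated difference of at least 2-fold was found for 2390 transcripts (8.76%) and of at least 4-fold for 295 (1.08%). The share with at least 2-fold went with the level: it was 18.1% among the 5002 transcripts with a mean under 1 CPM (counts per 1000000 after TMM scaling), 8.28% among the 14774 at 1 to 10 CPM, 3.45% among the 6696 at 10 to 100 CPM and 4.01% among the 799 over 100 CPM. Those 799 took 74.4% of the counts on average.

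**Figure D2:**
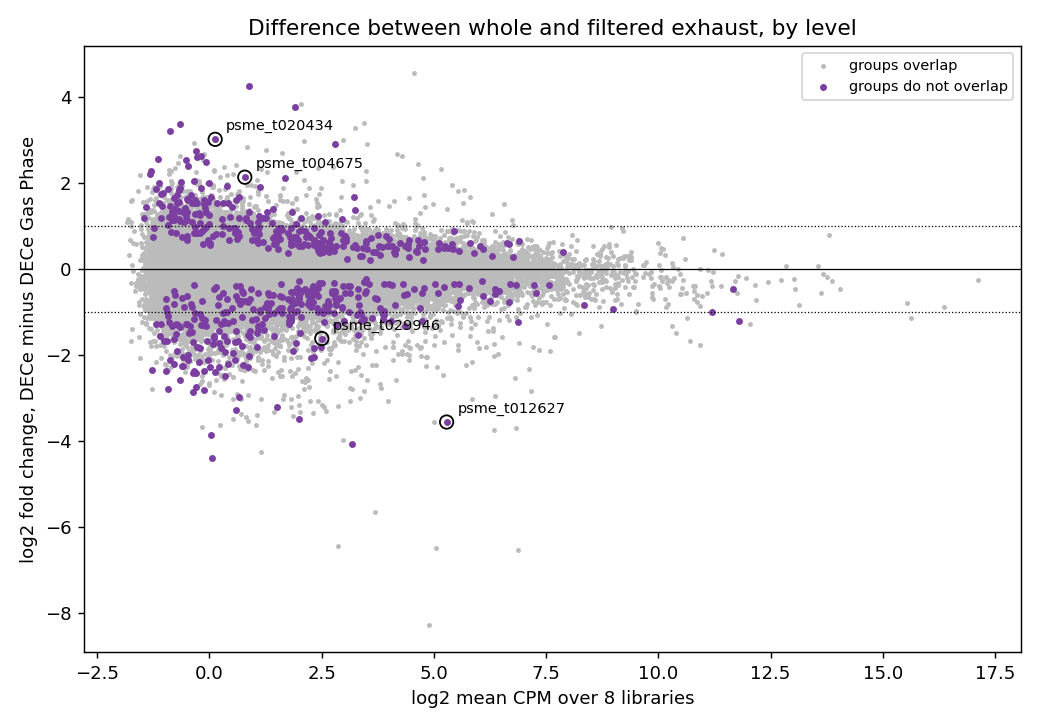
Each point is 1 of the 27271 tested transcripts, with the log2 of its mean CPM over the 8 libraries on the horizontal axis and its log2 fold change (DECe minus DECe Gas Phase) on the vertical axis. Purple points are the 588 whose groups do not overlap, circles mark the 4 transcripts described in full, and dotted lines stand at 2-fold; most points lie between those lines, and the few below -5 have overlapping groups.

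The transcript with the smallest p-value was psme_t012627 (2521 nt), which was lower under whole exhaust. Its level was 4.75, 4.89, 6.25 and 8.75 CPM in DECe replicates 2, 3, 4 and 13. In DECe Gas Phase replicates 2, 3, 7 and 10 it was 105, 63.4, 27 and 91.5 CPM. The groups did not overlap, and DECe Gas Phase replicate 7 was the lowest of its group. The means were 6.16 ± 1.85 and 71.7 ± 34.5 CPM (SD, n = 4 and 4), and the log2 fold change was -3.55 ± 0.44 (SE, edgeR unadjusted p = 1.02e-05, adjusted p = 0.278). The limma-voom adjusted p was 0.303. In edgeR's 8 fits without 1 library, it passed only without DECe Gas Phase replicate 7 (edgeR adjusted p = 0.0225). The next lowest edgeR adjusted p was 0.284, without DECe replicate 13. DESeq2 gave an adjusted p of 6.05e-11. In its 8 fits without 1 library, added after seeing the data, the DESeq2 adjusted p ran from 7.36e-21 to 2.85e-07. Those fits reuse libraries that chose this transcript.

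The 5 shallow libraries of both groups, which took no part in choosing psme_t012627, lay on the same sides. The shallow DECe libraries had 1, 2 and 6 counts of it, or 3.08, 3.55 and 5.64 CPM in a scaling over 19 libraries. The DECe Gas Phase ones had 112 and 37 counts, or 84.8 and 54.9 CPM. In RPKM the 7 DECe libraries were at 0.067 to 3.65 and all but 1 of the 6 DECe Gas Phase libraries were above that range, the lowest being 2.14 in the shallow replicate 5. With all 13 libraries in the edgeR fit, which include those that chose it, psme_t012627 was the 1 transcript called of 21539 tested. Its log2 fold change there was -3.67 (edgeR adjusted p = 1.36e-05). In the shallow libraries alone its log2 fold change was -3.88, and it was not called. It was not called in the edgeR fit of all 26 libraries (adjusted p = 0.44). Nor was it with all libraries of at least 10000000 counts (edgeR adjusted p = 0.909). After TMM scaling over those 13 libraries, 13 transcripts (0.0604%) had groups that did not overlap, 11 of them (0.0511%) lower in DECe. These counts are a description with no test. Air Control seedlings had 10.5 to 103 CPM of psme_t012627, with a median of 48.7 CPM (n = 6), or 21.6 CPM without replicate 14. All 6 lay above the 4 deep DECe libraries, and their range overlapped that of DECe Gas Phase.

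The transcript with the next smallest p-value among the lower ones, psme_t029946 (1505 nt), varied little within either group. It was at 3.27, 3.00, 2.08 and 2.84 CPM in the DECe libraries and at 8.00, 9.61, 8.31 and 8.23 CPM in the DECe Gas Phase libraries, in the order given above. The groups did not overlap, and the 4 filtered-exhaust seedlings lay close together. The log2 fold change was -1.61 ± 0.28 (SE, n = 4 and 4, edgeR unadjusted p = 1.55e-04, adjusted p = 0.9999), and DESeq2 gave an adjusted p of 1.84e-04. The Air Control seedlings were at 2.79 to 17.0 CPM with a median of 4.72 CPM (n = 6), and at 2.79 to 12.8 CPM without replicate 14, a range that overlapped both exhaust groups. In the shallow libraries it had 1 to 3 counts in DECe, and 11 and 1 in DECe Gas Phase, too few to place it.

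Among transcripts higher under whole exhaust, psme_t020434 (1972 nt) was at 0.897, 3.47, 2.49 and 0.921 CPM in DECe. It was at 0.0919, 0.275, 0.301 and 0.294 CPM in DECe Gas Phase, which stands for 2, 4, 13 and 3 counts. Replicates 3 and 4 of DECe were high and the groups did not overlap. This transcript passed the filter on low counts (0.462 CPM before TMM scaling, in 4 libraries) through the DECe libraries only, since 0 of the 4 DECe Gas Phase libraries reached it. Having entered through the group where it was high, it had to differ before TMM scaling, so its log2 fold change of 3.02 is a description with no test. Air Control seedlings overlapped both groups, at 0.0665 to 2.85 CPM (median 0.86, or 1.30 without replicate 14, n = 6). The second, psme_t004675 (3670 nt), was at 3.18, 1.70, 1.77 and 4.6 CPM in DECe and at 0.551, 0.618, 0.509 and 0.882 CPM in DECe Gas Phase. Its groups did not overlap either, with a log2 fold change of 2.14 ± 0.49 (SE, n = 4 and 4, edgeR unadjusted p = 0.00126, adjusted p = 0.9999), and DESeq2 gave an adjusted p of 0.0594. Air Control seedlings had 0 to 1.09 CPM of psme_t004675 (median 0.466, or 0.498 without replicate 14, n = 6), all below the 4 DECe seedlings. In the shallow libraries both transcripts had 0 counts except for 2 counts each in DECe Gas Phase replicate 4, so no direction could be read there.

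**Figure D3:**
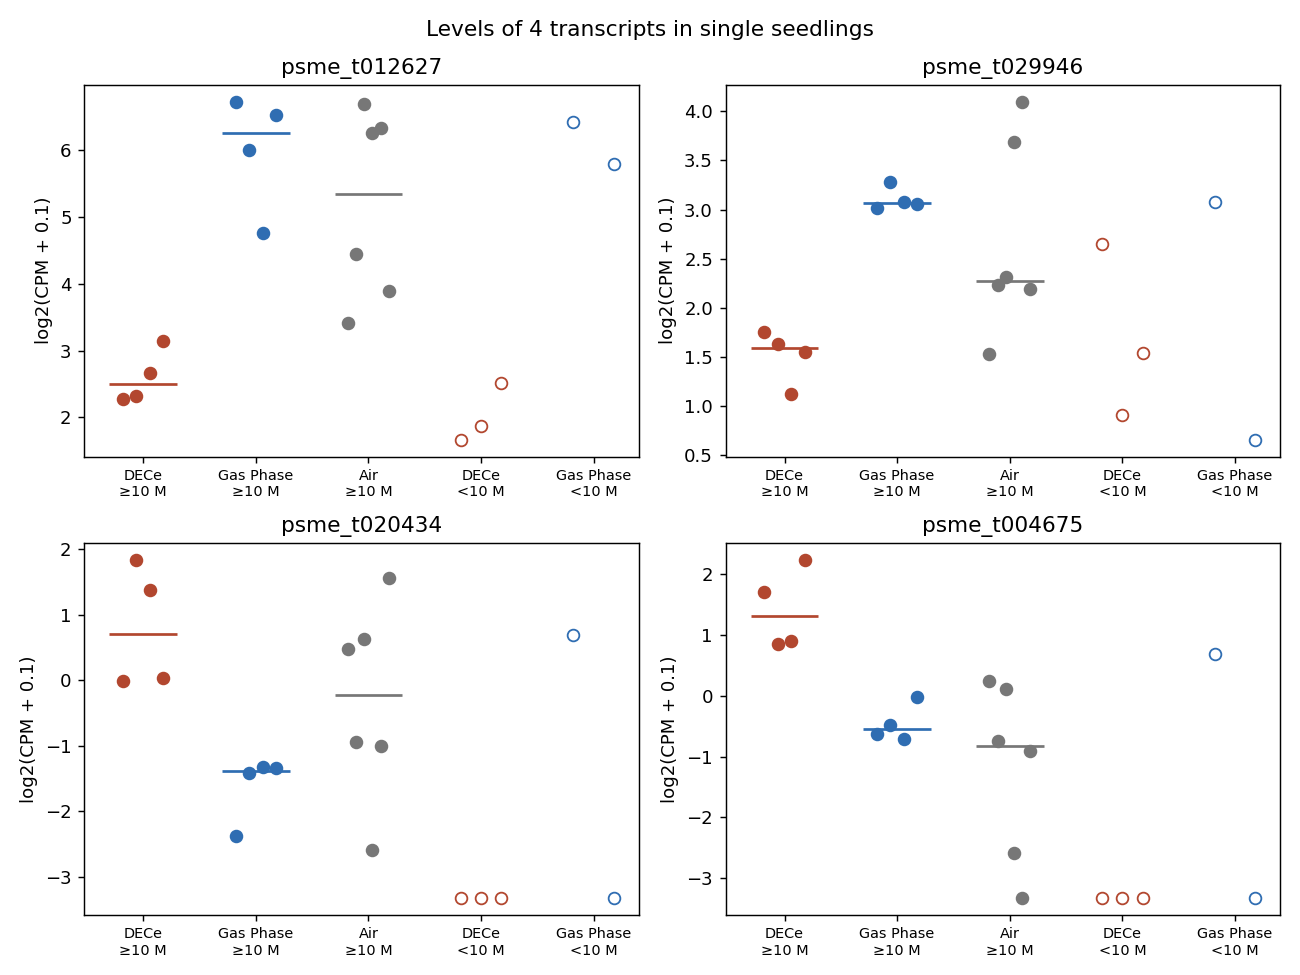
Points are single seedlings, with log2(CPM + 0.1) on the vertical axis, filled for libraries of at least 10000000 counts and open for shallower ones; horizontal lines are medians of the deep libraries. In psme_t012627 the 7 DECe seedlings lie below the 6 DECe Gas Phase seedlings, while in the other 3 transcripts the deep libraries part without overlap and the shallow ones hold too few counts to place them.

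All 11 transcripts that DESeq2 called had an estimated difference of at least 2-fold, and in 9 of the 11 the groups did not overlap. Their edgeR log2 fold changes ran from -4.05 to 3.77. In all 11 the Air Control median lay between the medians of both exhaust groups, as it did for 63.2% and 58.8% of the transcripts whose groups did not overlap, higher and lower in DECe, and for 8323 (30.5%) of all tested. An air level falls more readily between groups that lie far apart, so these shares are a description. Without Air Control replicate 14 this held for 9 of the 11 and for 29.9% of all. The DESeq2 count depended on single seedlings. It was 103 of 28915 tested without DECe replicate 2 and 52 of 28819 without DECe replicate 13. Without DECe Gas Phase replicate 7 it was 35 of 27986, and without DECe Gas Phase replicate 10 it was 16 of 29257. It was 15 of 28102 without DECe replicate 4 and 15 of 28245 without DECe Gas Phase replicate 2. The lowest counts were 7 of 27983 without DECe replicate 3 and 3 of 29035 without DECe Gas Phase replicate 3. Both psme_t012627 and psme_t029946 were called in all 8 of these fits. The fits were added after seeing the data and reuse libraries that chose both transcripts, so this is a description. In edgeR's fits without 1 library psme_t029946 was never called.

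Groups that did not overlap were found for 588 transcripts (2.16%), 277 higher (1.02%) and 311 lower (1.14%) in DECe. Group labels drawn at random, 4 against 4, would part a transcript without ties in a fraction of 0.0286, above the 2.16% found. The count is thus not beyond what random labels give. With library sizes alone as the scaling the split was 557 higher and 88 lower (2.37% together), so the balance of directions depended on the scaling. Leaving out 1 library gave 963 (3.32%) to 1996 (6.93%) such transcripts, with fewer libraries to be parted in each case. The most were found without DECe replicate 13. The 588 had a median level of 2.86 CPM and a median length of 2049 nt, against 3.66 CPM and 2004 nt over all tested transcripts. The 311 lower ones were shorter, with a median of 1756 nt, than the 277 higher ones, at 2430 nt. A gap of at least 2-fold between the nearest seedlings of both groups was found for 14 of the 588. Of the 588, 41 passed the filter on low counts only through the group where they were high, against 50 of all 27271 tested. These had to differ before TMM scaling. These values describe transcripts chosen for their difference and carry no test.

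The shallow libraries, 3 of DECe and 2 of DECe Gas Phase, gave a further look at these 588. Of the 119 that could be tested there, 59 (49.6%) had the same direction, 25 of 51 among the higher and 34 of 68 among the lower ones. Over all 7407 transcripts tested in both sets of libraries, 3956 (53.4%) had the same direction. In these shallow libraries alone edgeR called 0 of 7895 tested transcripts, and 185 had an unadjusted p under 0.05. They also differ in composition, with the dominant transcripts at 84.7% to 94.0% of the counts.

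Set against the air seedlings, either exhaust group could stand apart from the rest. In 61 transcripts (0.224%) all 4 DECe seedlings lay above every DECe Gas Phase and Air Control seedling, and in 62 (0.227%) below. For DECe Gas Phase the counts were 25 (0.0917%) above and 22 (0.0807%) below every DECe and Air Control seedling. Of the 4 transcripts described in full, psme_t012627 was among the 62 and psme_t004675 among the 61, while psme_t029946 and psme_t020434 had Air Control levels that overlapped both groups. Without Air Control replicate 14 the counts were 62 and 70 for DECe and 41 and 32 for DECe Gas Phase, above and below. No test was made of these counts.

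Transcripts on one side of air in every exhaust seedling had median differences between the exhausts close to 0 under TMM scaling, and more of them were lower than higher in DECe. In 126 transcripts all 8 exhaust seedlings lay above the 6 Air Control seedlings. Their median log2 fold change between DECe and DECe Gas Phase was -0.08, with a median size of 0.28 against 0.31 over all tested transcripts, and 6 (4.76%) reached 2-fold. In DECe 47 were higher and 79 lower. In 167 transcripts all 8 lay below air. Their median was also -0.08, with a median size of 0.18, and 3 (1.8%) reached 2-fold. In DECe 55 were higher and 112 lower, while over all tested transcripts 13541 were higher and 13730 lower. Both medians are smaller than the shift of 0.26 that library sizes alone give to the median of all transcripts. No test was made of these counts. The exhaust groups did not overlap in 2 of the 126 (1.59%) and in 4 of the 167 (2.4%), against 2.16% over all tested. Without Air Control replicate 14 the lists held 179 and 246 transcripts, with medians of -0.11 and -0.05. The lists were chosen by their distance from air with both exhausts together, and hold more abundant transcripts, with medians of 14.9 and 5.18 CPM.

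The 95% interval of each difference shows which sizes the 8 seedlings leave possible (limma-voom, not adjusted over transcripts). The whole interval lay within 2-fold in either direction for 7170 transcripts (26.3%) and within 4-fold for 20343 (74.6%). It lay wholly beyond 2-fold for 68 (0.249%). For transcripts at 10 to 100 CPM, 55.8% of the intervals lay within 2-fold and 93.3% within 4-fold. Under 1 CPM those shares were 0.1% and 35.9%, so intervals there were too wide to bound a difference at 2-fold. The median interval reached 1.71 log2 units to each side under 1 CPM, 1.00 at 1 to 10 CPM and 0.70 at 10 to 100 CPM. For psme_t012627 the interval ran from -4.43 to -2.48 and for psme_t029946 from -2.21 to -1.03. Both were picked for the smallest p-values in these 8 libraries, so intervals away from 0 follow from the choice. Their limma-voom adjusted p-values were 0.303 and 0.998. Without DECe Gas Phase replicate 7 the count within 2-fold was 4352.

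Seedlings of 1 chamber differed most in transcripts of low level. The median SD of log2 CPM was 0.62 within DECe and 0.57 within DECe Gas Phase. It was 1.03 and 0.86 under 1 CPM, 0.45 and 0.43 at 10 to 100 CPM and 0.47 in both groups over 100 CPM. The SD was larger within DECe for 15090 transcripts (55.3%) and larger within DECe Gas Phase for 12181 (44.7%). DECe replicate 13 was the highest of the 8 libraries for 18.4% of transcripts and the lowest for 21.4%. DECe replicate 4 was the highest for 6.61% and the lowest for 6.75%.

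**Figure D4:**
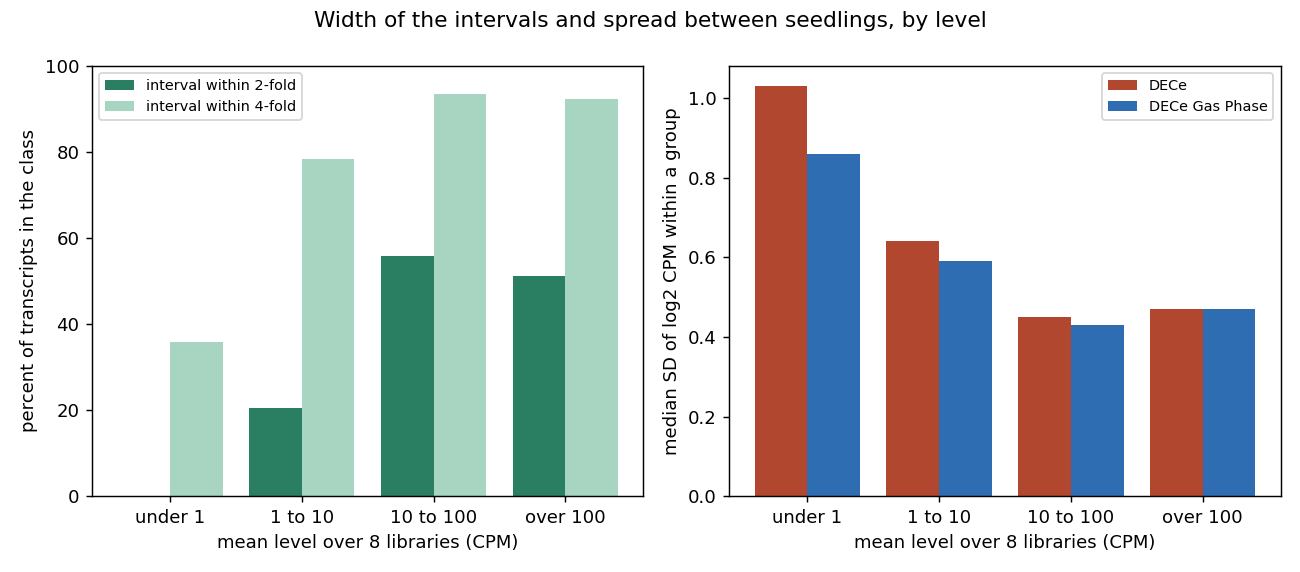
The left panel gives, by mean level, the percent of transcripts whose 95% interval lies within 2-fold or 4-fold. The right panel gives the median SD of log2 CPM between the 4 seedlings of each group; intervals are widest and SDs largest under 1 CPM, and DECe exceeds DECe Gas Phase in the lower 3 classes.

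Whole profiles did not part by group. The group explained 12.5% of the squared distances between the 8 libraries (Euclidean on log2 CPM, exact permutation test over 70 splits, p = 0.629, n = 4 and 4, where the smallest possible p is 0.0286). The mean distance between seedlings of different groups lay between the means within the groups. The mean distance was 213 log2 units over all transcripts between the groups, 227 within DECe and 206 within DECe Gas Phase. The nearest library belonged to the same group for 4 of the 8. DECe replicates 3 and 4 formed the closest pair, at a distance of 146, followed by DECe replicate 4 and DECe Gas Phase replicate 7 at 153. DECe replicate 13 was the most distant, 229 from its nearest neighbour, DECe Gas Phase replicate 3. In a scaling over 14 libraries the mean distance to the Air Control seedlings was 217 for DECe and 207 for DECe Gas Phase, and 185 among the Air Control seedlings themselves. Without Air Control replicate 14 these were 209, 202 and 171. Groups overlapped on each of the first 4 principal components, which held 31.8%, 17.8%, 15.9% and 13% of the variance.

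**Figure D5:**
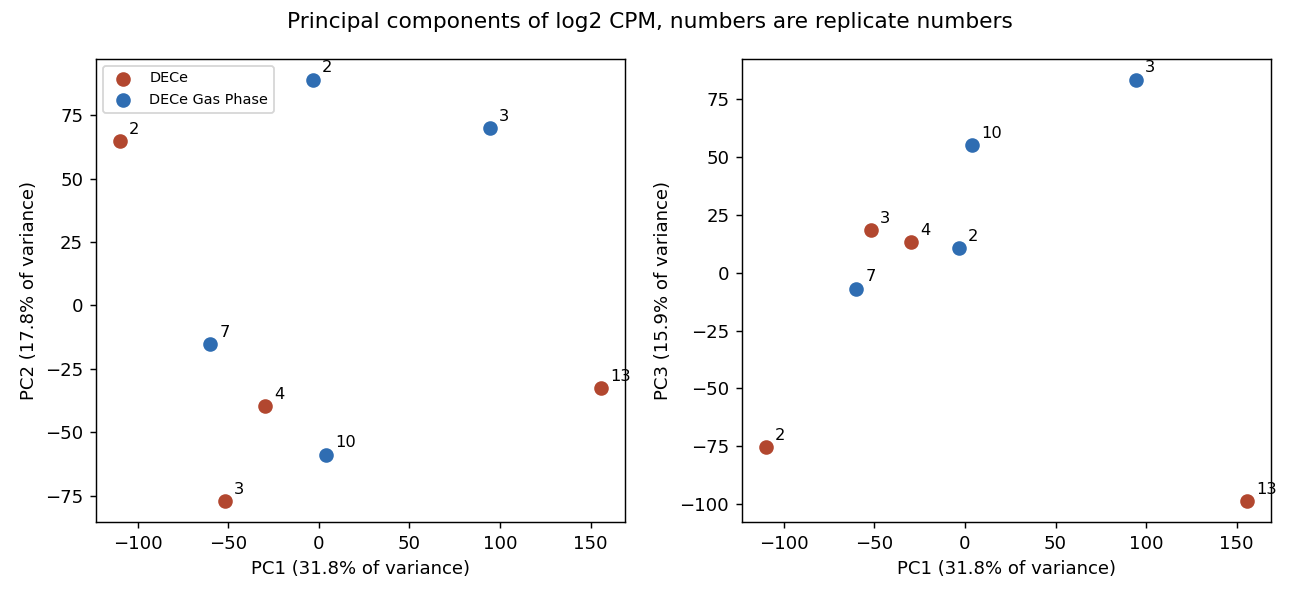
Each point is 1 of the 8 libraries, numbered by replicate, on 3 principal components of log2 CPM, in a panel for components 1 and 2 and a panel for components 1 and 3 (axes in component units, with the percent of variance). DECe and DECe Gas Phase seedlings are intermixed, and DECe replicate 13 lies at the far end of the first component.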

How the data were processed

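Groups came from each sample's source label and replicate numbers were read in its title. Needle mRNA (FastTrack MAG) went into PrepX libraries for Illumina sequencing, per the labels' protocols. CASAVA 1.8.2 stands in the submitters' processing notes. For the aligner, counter, reference transcriptome and strand, the entry is: not given in the sources used here. Hence near-identical or overlapping transcripts cannot be told apart. The authors deposited 1 table of read counts (whole numbers, 173882 transcripts, 94979 of them at 0 in all 8 libraries), per the file headers. The deposited RPKM table gave lengths, as counts divided by RPKM and column total (within 0.0089% at RPKM of 10 or more). No column was left out.

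Counts of the 8 libraries were tested with edgeR 4.0.16 in R 4.3.3 (filterByExpr by group, minimum count 10, TMM factors, robust quasi-likelihood F test), with Benjamini-Hochberg adjustment over all 27271 transcripts at 0.05. The SE of a log2 fold change is the change divided by the root of its F statistic. Intervals came from limma-voom (limma 3.58.1). Distances used log2 CPM with a prior count of 2. The test steps were tested on simulated counts. Alternatives included DESeq2 1.42.0 (8078 adjusted p left as NA), other scalings, filters and library sets, RPKM with limma and leaving out each library. Air Control levels were scaled with TMM over 14 libraries and shallow ones over 19, each set to the level of the 8-library scaling, from which the 8 libraries deviated by at most 1.96%. Intervals and counts carry counting and seedling error only, and a floor of 3 counts was 0.0415 to 0.294 CPM per library. Every pair of libraries differed beyond counting noise (chi-square per degree of freedom of 61.9 or more).

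The members, lists and tests were chosen with earlier results of these data known. The transcripts described in full are the 2 with the smallest p-values in each direction, since fewer than 10 passed, and the 5 with the highest mean share of counts. A test of the column totals had been planned and was dropped, since the totals chose the libraries. Numbers of the titles were taken to name seedlings, and the main fit did not pair them.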

Additional observations from a re-analysis of the deposited data

Results flagged for a closer look

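In 3 of 28 sets of 4 or 6 seedlings tested for a sample far from the others, 1 seedling stood apart, and about 1 in 20 would be picked by chance. The dominant transcripts took 38.2% of the counts in DECe replicate 13, against 44.2% to 45.4% in the other DECe libraries. The transcript psme_t000146 took 7.69% in DECe Gas Phase replicate 10, against 4.31% to 4.57% in the others of that group. The level of psme_t020434 was 0.0919 CPM (2 counts) in DECe Gas Phase replicate 2, against 0.275 to 0.301 CPM in the others (3 to 13 counts).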

How the results depend on the processing

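The count of 0 called transcripts (edgeR) remained 0 under both other scalings, a mean of at least 50 counts, limma-voom with sample weights, a fit that is not robust, legacy=FALSE, both RPKM pseudocounts, the fits of 15 and 26 libraries, the shallow libraries alone, thinned counts and the covariate. It was 149 of 78903 tested with no filter on low counts (7 of the 11 DESeq2 calls among them) and 11 with DESeq2. It was 1 with all 13 libraries of both groups and 0 to 2 without 1 library. In alternatives added after seeing the data, DESeq2 without 1 library called 3 to 103, of 27983 to 29257 tested. These were 103, 7, 15 and 52 without DECe replicates 2, 3, 4 and 13, and 15, 3, 35 and 16 without DECe Gas Phase replicates 2, 3, 7 and 10. The cause was not tested. With the replicate block, where only numbers 2 and 3 are shared and 1 residual degree of freedom is left, 0 were called and 3177 had an unadjusted p under 0.05 against 838. Same-numbered seedlings had correlations of 0.13 and -0.19. With only 2 shared numbers these cannot settle whether the numbers pair seedlings, and the numbers were taken as names only. The 4 named transcripts kept their direction in every alternative where they were tested (log2 fold changes of psme_t012627 from -4.07 to -2.72). All alternatives but the shallow libraries alone reuse libraries that chose these transcripts, so the kept direction is a description. Library sizes alone moved the median log2 fold change to 0.26, from 0.00. The between-group share of distances ran from 12.7% to 18.5% without 1 library, and from 10.8% to 12.4% in the other alternatives, with 0 passing. The log2 total difference ran from -0.122 to 0.640 without 1 library and the difference in detected transcripts (-1334) from -6669 to 2062, and it was 2849 at 10 counts or more, where fewer transcripts count as detected. The difference in dominant share ran from -7.30 to -2.94 percentage points. Intervals within 2-fold numbered 17291 on log2(RPKM + 1), where the pseudocount shrinks low values, and 4352 to 6662 without 1 library, and those within 4-fold 17283 to 20552. Groups without overlap numbered 361 of 18459 tested (1.96%) at a mean of at least 50 counts, where fewer are tested. They numbered 963 (3.32%) to 1996 (6.93%) without 1 library. Transcripts under 1 CPM had the widest intervals and also the largest SDs between seedlings, and the part of depth in this was not tested.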

Other observations

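Many of the largest estimated differences rested on single seedlings. Of the 295 transcripts with at least 4-fold, 226 were lower and 69 higher in DECe, and in 140 (47.5%) 1 library held over 50% of the summed CPM of the 8, against 440 (1.61%) of all tested transcripts. That library was DECe Gas Phase replicate 2 in 57 cases and replicate 3 in 36, and DECe replicate 13 in 21. Among the 10 transcripts with at least 16-fold, 1 library held over 50% in 8 (80%). All 5 transcripts with at least 32-fold were lower in DECe, and in each of them 1 DECe Gas Phase seedling held between 82.8% and 98.9% of the summed CPM. Transcripts chosen for a large difference hold most of their CPM in 1 group, so 1 library more readily holds over 50%. The contrast with all tested transcripts is thus partly set by the choice and is a description. No explanation of this was tested.

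Some transcripts were counted in 1 exhaust group and at 0 in the other. Of 78903 transcripts with a count in the 8 libraries, 26544 were counted in all 8. In DECe and at 0 in DECe Gas Phase there were 11220 of the 78903, of which 9430 (84.0%) were counted in a single seedling and 13 in all 4. In DECe Gas Phase and at 0 in DECe there were 9653 of the 78903, of which 7765 (80.4%) were counted in a single seedling and 40 in all 4. None of the 13 or the 40 reached 10 counts in each of its 4 libraries. Library totals ran from 12404373 counts in DECe replicate 13 to 60457187 in DECe replicate 3. The part of depth in these numbers was not tested.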
